A study of Mus musculus with 8 samples.

Results

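The elastic fiber genes examined here were 10 genes chosen by symbol, namely *Eln*, *Fbln1*, *Fbln2*, *Fbln5*, *Efemp1*, *Efemp2*, *Emilin1*, *Mfap2*, *Mfap4* and *Mfap5*, and the fibrillins were left out of the set. All 10 were found among the 54532 Ensembl gene identifiers and all 10 passed the filter on low counts, which 22544 genes passed in all. RNA came from primary cultures of wild-type mouse brain pericytes, 4 kept with vehicle and 4 exposed to TGF-β1 at 5 μg mL−1, and was collected at 48 h. The cells had been grown out of homogenized brain on collagen and passaged before use, and no sort by a surface marker is described for these cultures. No measured value was used to choose the 10 genes, although earlier results of these data were known when the set was drawn up. The study's methods speak of 4 isolates that each received both treatments, but the labels number the vehicle cultures 1 to 4 and the TGF-β1 cultures 5 to 8. The groups were therefore compared as unpaired, and the p-values measure only the spread between these cultures.

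An elastic fiber has a core of cross-linked elastin, the rubber-like protein that lets arteries, lung and skin recoil, laid down on a scaffold of fibrillin microfibrils. Fibulins guide the elastin precursor onto the microfibrils and bring in the lysyl oxidases that cross-link it. Microfibril-associated glycoproteins and EMILINs sit on the microfibrils or at their border with elastin. Brain capillaries, which pericytes wrap, have a basement membrane and little elastin, whereas the walls of arteries are rich in it, and TGF-β is known to raise elastin synthesis in many mesenchymal cells.

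The libraries held between 45255235 and 47651397 counts with vehicle and between 45988208 and 46827358 with TGF-β1 (exact permutation test, two-sided, p = 0.857). As a check of the labels, *Smad7*, an inhibitory SMAD that TGF-β induces, went from 48.8 ± 2.27 CPM (SD, n = 4) to 74.2 ± 1.69 CPM (SD, n = 4), where CPM is the count in every 1000000 after TMM scaling. *Cthrc1*, a secreted protein that TGF-β is also known to induce, went from 31.3 ± 1.57 to 65.1 ± 2.19 CPM (SD, n = 4 each). Of the list of 12 TGF-β response genes they belong to, 10 were higher and 2 lower, the latter being *Tgfbi*, from 230.0 ± 4.78 to 81.2 ± 10.3 CPM, and *Id1*, from 78.1 ± 3.79 to 68.4 ± 2.79 CPM (SD, n = 4 each), both named after their values were seen. Among 12 pericyte markers, *Pdgfrb* went from 202 CPM with vehicle to 291 CPM with TGF-β1, whereas *Rgs5* went from 8.62 to 2.13 CPM. *Kcnj8*, *Abcc9*, *Vtn*, *Higd1b* and *Atp13a5* stayed under 1 CPM in every culture. Of the 12, 4 rose and 3 fell, and their summed level ranged from 578 to 597 CPM with vehicle and from 755 to 784 CPM with TGF-β1. Fibroblast markers were mixed too, with *Pdgfra* at 62.5 CPM and 5 of 10 under 1 CPM in every culture. The summed level of the fibroblast list ranged from 3784 to 3950 CPM with vehicle and from 5333 to 5575 CPM with TGF-β1, with 3 markers higher and 3 lower. Most of it came from the collagen genes *Col1a1* (1587.5 CPM with vehicle, 2525 with TGF-β1) and *Col1a2* (2121 and 2852 CPM). *Scara5* fell from 68.8 to 5.53 CPM, and *Pdgfra* was at 63.0 CPM with TGF-β1. These genes were named after their values were seen. Of 10 endothelial markers 4, among them *Cldn5*, were under 1 CPM throughout, but *Cdh5* was at 375 CPM with vehicle and 367 CPM with TGF-β1. *Flt1* was at 81.7 and 99.2 CPM and *Kdr* at 17.9 and 18.6 CPM. *Pecam1* was at 1.11 CPM in both groups and *Vwf* at 1.58 and 3.81 CPM. These genes were chosen here after their values were seen, and 2 of the list rose and 1 fell. The summed endothelial level ranged from 473 to 486 CPM with vehicle and from 475 to 501 CPM with TGF-β1. The lists of other cell types held both abundant and nearly absent markers, named here after their values were seen. The 8 smooth muscle markers summed to between 850 and 924 CPM with vehicle and between 796 and 831 CPM with TGF-β1. Of these markers 2 rose and 2 fell. Most of the sum came from *Acta2* (731 CPM with vehicle, 715 with TGF-β1) and *Smtn* (125 and 61.6 CPM). *Des* was under 1 CPM in every culture. The 8 astrocyte markers summed to between 251 and 263 CPM and between 227 and 239 CPM, with 2 higher and 2 lower. Most of the sum came from *Gja1* (195 CPM with vehicle, 190 with TGF-β1) and *Slc1a2* (38.5 and 16.3 CPM). *Aqp4* was under 1 CPM throughout. The 10 macrophage and microglia markers summed to between 109 and 114 CPM and between 109 and 111 CPM, with 1 higher and 0 lower. *Tmem119* alone gave 102 CPM with vehicle and 98.5 CPM with TGF-β1. *P2ry12*, *Aif1*, *C1qa*, *C1qb*, *Ptprc* and *Itgam* were under 1 CPM in every culture. For 7 oligodendrocyte markers (1 higher, 2 lower) the ranges were 25.6 to 27.3 and 20.2 to 23.6 CPM, mostly *Cnp* (21.5 and 15.9 CPM). For 5 neuronal markers (1 higher, 0 lower) they were 4.34 to 5.50 and 9.08 to 11.8 CPM. Most of the latter was *Syt1* (2.43 and 2.24 CPM) and *Tubb3* (2.11 and 7.91 CPM). Of each list, 3 were under 1 CPM throughout. In bulk RNA, fewer cells of a type and less RNA per cell cannot be told apart, and the part of other cell types in the results below was not tested.

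TGF-β1 moved the elastic fiber genes in opposite directions. Elastin itself, *Fbln2*, *Fbln5*, *Efemp2* and *Mfap5* rose, *Fbln1*, *Efemp1* and, less firmly, *Mfap2* fell, and *Emilin1* and *Mfap4* did not pass the test. Thus 8 of the 10 were called at an adjusted p under 0.05 (edgeR quasi-likelihood test, adjusted over all genes tested), where 41.3% of all genes tested were called. The 5 that rose stand against 20.9% of all genes and the 3 that fell against 20.3%. Calls were more common among abundant genes, at 73.0% of those with a mean of at least 100 CPM against 37.0% of the rest, and 6 of the 10 members were that abundant, of which 5 were called. A change of at least 1 on the log2 scale together with the adjusted p was found for 4 members and for 5.41% of all genes. Of these 4, 3 rose (2.59% of all genes did so) and 1 fell (2.83%). The median log2 fold change was 0.23 over the 10 members and -0.01 over all genes tested, and the median size of the change was 0.48 and 0.18. In 6 members the cultures of the groups did not overlap, as was the case for 37.9% of all genes.

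**Figure D1:**
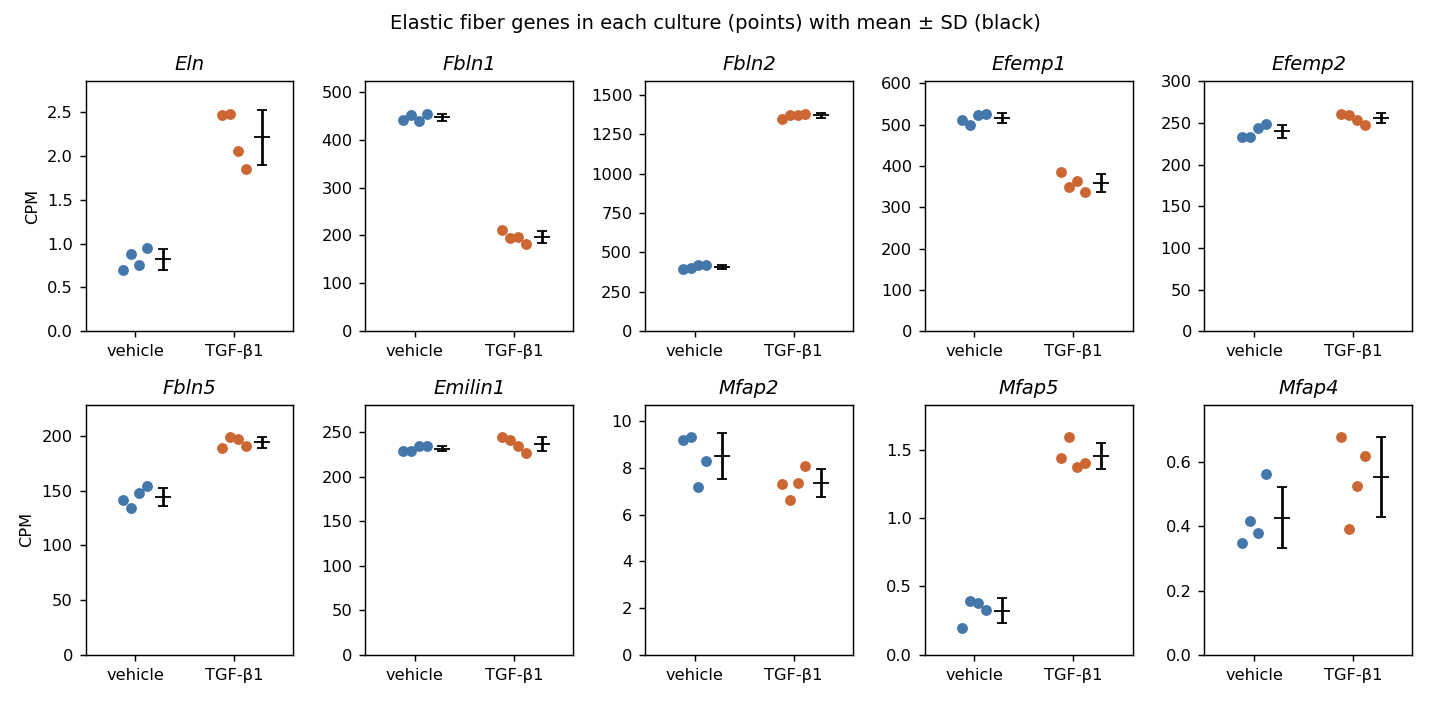
CPM of each of the 10 elastic fiber genes in 4 vehicle cultures (blue) and 4 TGF-β1 cultures (orange), with the mean ± SD in black and each vertical axis starting at 0. *Eln*, *Fbln2*, *Fbln5* and *Mfap5* lie wholly above the vehicle cultures after TGF-β1, *Fbln1* and *Efemp1* wholly below, and the other 4 genes overlap.

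*Eln* (ENSMUSG00000029675, chromosome 5, 134702593 to 134747323 of GRCm38, minus strand) encodes tropoelastin, the soluble precursor of the fiber core. Its level was 0.694, 0.877, 0.758 and 0.953 CPM in vehicle cultures 1 to 4 and 2.47, 2.48, 2.05 and 1.85 CPM in TGF-β1 cultures 5 to 8. Every TGF-β1 culture thus lay above every vehicle culture. This was a 2.69-fold rise from a very low base, or 1.43 ± 0.18 on the log2 scale (± standard error here and for the members below, adjusted p = 7.26e-09, edgeR). Between 32 and 44 counts per vehicle culture and between 87 and 114 per TGF-β1 culture stood behind these values. With counts halved, to allow for both mates of a pair having been counted, the adjusted p was 4.06e-09. Exons on the opposite strand, of *Gm30003*, overlap 3.30% of the exon length of *Eln*.

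*Fbln5*, *Efemp2* and *Efemp1* encode the short fibulins. Fibulin-5 and fibulin-4, the product of *Efemp2*, are both needed for elastic fibers to assemble in mice, fibulin-5 by tethering tropoelastin to microfibrils and cells and fibulin-4 by binding lysyl oxidase. *Fbln5* (ENSMUSG00000021186, chromosome 12, 101746565 to 101819055, minus strand) was at 141, 134, 148 and 154 CPM in the vehicle cultures and at 189, 199, 197 and 191 CPM in the TGF-β1 cultures. The groups did not overlap, and the level rose by 0.43 ± 0.03 on the log2 scale (adjusted p = 2.09e-13, edgeR), or 34.4%. *Efemp2* (ENSMUSG00000024909, chromosome 19, 5473954 to 5482517, plus strand) was at 233, 233, 244 and 249 CPM with vehicle and at 261, 260.1, 253 and 248 CPM with TGF-β1. The rise was small, 0.09 ± 0.03 on the log2 scale (adjusted p = 0.00258, edgeR) or 6.60%, and TGF-β1 culture 8 lay below vehicle culture 4. The exons of *Efemp2* overlap those of *Mus81* on the opposite strand over 4.57% of their length.

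*Efemp1* (ENSMUSG00000020467, chromosome 11, 28853204 to 28926743, plus strand) encodes fibulin-3, whose loss in mice thins elastic fibers in fascia. It went the other way from its close relatives, from 512, 499.9, 524 and 527 CPM in the vehicle cultures to 385, 349, 363 and 337 CPM in the TGF-β1 cultures. The groups were well apart. On the log2 scale the change was -0.52 ± 0.03 (adjusted p = 1.02e-12, edgeR), so that the level fell by 30.4%.

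The long fibulins changed most among the abundant members, and in opposite directions. *Fbln2* (ENSMUSG00000064080, chromosome 6, 91212455 to 91272540, plus strand) encodes fibulin-2, which is found at elastic fibers and basement membranes and binds fibronectin and versican. Its values were 395, 403, 422 and 418 CPM with vehicle and 1351, 1375, 1376 and 1382 CPM with TGF-β1. Its 3.35-fold rise, 1.74 ± 0.02 on the log2 scale (adjusted p = 2.27e-42, edgeR), was exceeded by 0.692% of the genes tested. *Fbln1* (ENSMUSG00000006369, chromosome 15, 85205949 to 85286535, plus strand) encodes fibulin-1, a fibronectin- and fibrinogen-binding protein that also lies within the elastin core. It was at 440.3, 452, 439 and 454 CPM with vehicle and at 212, 194, 196 and 182 CPM with TGF-β1. No culture of either group came near the other group. After TGF-β1 the level was 2.28-fold lower, a change of -1.19 ± 0.03 on the log2 scale (adjusted p = 3.30e-20, edgeR), and 1.81% of the genes tested had a lower log2 fold change. The counts are per gene, so the splice forms of fibulin-1 were not separated.

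Of the microfibril-associated glycoproteins, *Mfap5* rose and *Mfap2* lay near the threshold. *Mfap5* (ENSMUSG00000030116, chromosome 6, 122505845 to 122529290, plus strand) encodes MAGP-2, a fibrillin-binding protein that also has an integrin-binding RGD site. It was at 0.195, 0.395, 0.379 and 0.325 CPM with vehicle and at 1.44, 1.59, 1.37 and 1.40 CPM with TGF-β1, the groups lying far apart. Its 4.46-fold rise, 2.16 ± 0.24 on the log2 scale (adjusted p = 4.21e-10, edgeR), was the largest of the 10 members, but it rested on 9 to 18 counts per vehicle culture and 63 to 73 per TGF-β1 culture.

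*Mfap2* (ENSMUSG00000060572, chromosome 4, 141010418 to 141015984, plus strand) encodes MAGP-1, which binds fibrillin and can hold TGF-β family proteins on the microfibril. Its values were 9.18, 9.30, 7.18 and 8.30 CPM with vehicle and 7.31, 6.62, 7.35 and 8.09 CPM with TGF-β1, and the groups overlapped. The change was -0.21 ± 0.08 on the log2 scale (adjusted p = 0.0446, edgeR). The call did not hold with DESeq2 (adjusted p = 0.111), nor with edgeR without vehicle culture 1 (0.167), vehicle culture 2 (0.177), vehicle culture 4 (0.0567), TGF-β1 culture 5 (0.0692), TGF-β1 culture 6 (0.160) or TGF-β1 culture 7 (0.0746).

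*Mfap4* (ENSMUSG00000042436, chromosome 11, 61485431 to 61488900, plus strand) encodes a fibrinogen-related protein that binds elastin, fibrillin and integrins. With 16 to 31 counts per culture it was at 0.347, 0.417, 0.379 and 0.563 CPM with vehicle and at 0.676, 0.392, 0.524 and 0.617 CPM with TGF-β1. The 95% interval of its log2 fold change, from -0.24 to 0.98, was wide, and the test gave an adjusted p of 0.356 (edgeR). Its exons overlap those of *Mapk7* on the opposite strand over 4.63% of their length.

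*Emilin1* (ENSMUSG00000029163, chromosome 5, 30913402 to 30921277, plus strand) encodes the elastin microfibril interfacer 1, which lies between elastin and microfibrils and holds back the processing of the TGF-β precursor. It was at 229, 229, 234 and 234 CPM with vehicle and at 244, 242, 235 and 226 CPM with TGF-β1, so the groups overlapped. The change was 0.03 on the log2 scale, with a narrow 95% interval from -0.02 to 0.08 (adjusted p = 0.339, edgeR).

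**Figure D2:**
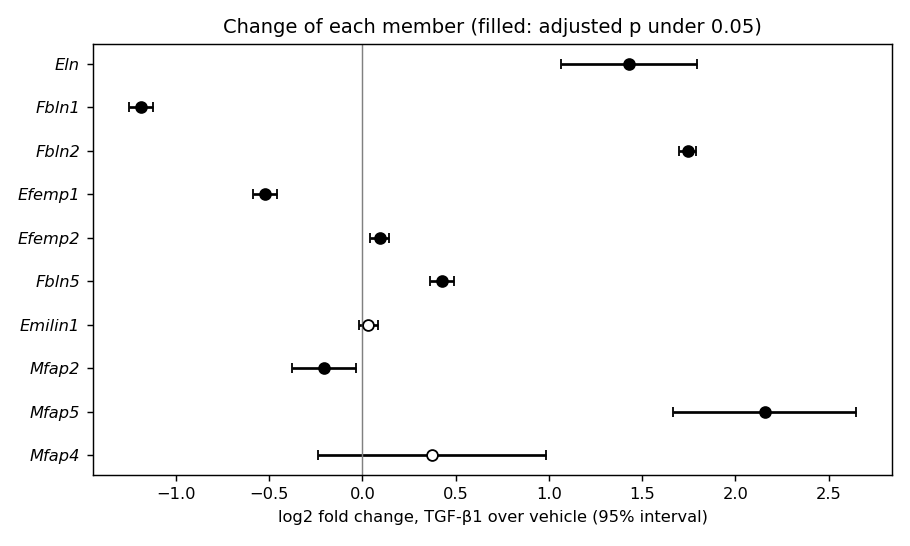
Log2 fold change of TGF-β1 over vehicle for each of the 10 genes on the horizontal axis, with the 95% interval from the edgeR fit of 4 against 4 cultures, filled where the adjusted p was under 0.05. *Mfap5* (2.16), *Fbln2* (1.74) and *Eln* (1.43) lie farthest to the right and *Fbln1* (-1.19) farthest to the left, and the intervals are widest for *Mfap4*, *Mfap5* and *Eln*.

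Levels of different genes were compared as TPM, the count per kilobase of annotated exon scaled to 1000000 over all genes. With vehicle, *Efemp1* led at 1082 ± 18.7 TPM (SD, n = 4), followed by *Fbln1* at 437 ± 7.72, *Fbln2* at 275 ± 5.90, *Efemp2* at 271 ± 6.61, *Emilin1* at 200.4 ± 0.813, *Fbln5* at 89.2 ± 4.55 and *Mfap2* at 30.0 ± 3.72 TPM. *Mfap4* (0.948 ± 0.206), *Eln* (0.433 ± 0.0595) and *Mfap5* (0.385 ± 0.106) were near or under 1 TPM. The ranges of *Fbln2* and *Efemp2* overlapped, as did those of *Eln* and *Mfap5*, and the other neighbors in this order were apart. The order of *Fbln2* and *Efemp2* turned when the longest transcript was used as the length. The cultures thus held transcripts of the fibulins, of *Emilin1* and of *Mfap2*, but little of the elastin transcript itself.

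With TGF-β1 the order changed at the top, where *Fbln2* led at 916 ± 15.6 TPM (SD, n = 4), ahead of *Efemp1* at 749 ± 41.8 TPM. *Fbln1* dropped to the fifth place at 191 ± 11.1 TPM, with a range that overlapped that of *Emilin1* (204 ± 5.27). *Mfap5* (1.72 ± 0.0969), *Mfap4* (1.22 ± 0.280) and *Eln* (1.16 ± 0.153) stayed at the bottom, the last 2 with overlapping ranges. *Eln* and *Mfap4* changed places with the longest transcript as the length.

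In TPM, the summed level of the 10 genes differed little next to these shifts. It was 2381, 2352, 2390 and 2420 TPM in the vehicle cultures and 2555, 2454, 2518 and 2456 TPM in the TGF-β1 cultures. Each TGF-β1 culture lay above the vehicle cultures. As CPM, which takes no account of length, the sum ranged from 1961 to 2046 with vehicle and from 2579 to 2654 with TGF-β1. The size of this difference thus depends on the measure. The 5 fibulins made up 90.3% ± 0.201 (SD, n = 4) of the summed TPM with vehicle and 90.6% ± 0.0940 (SD, n = 4) with TGF-β1. Within that nearly constant share, *Fbln2* went from 11.5% ± 0.206 to 36.7% ± 1.16, *Fbln1* from 18.3% ± 0.432 to 7.64% ± 0.306 and *Efemp1* from 45.4% ± 0.392 to 30.0% ± 1.08 (SD, n = 4 each). *Efemp2* held 11.3% ± 0.155 and 11.5% ± 0.175, and *Eln* 0.0181% ± 0.00244 and 0.0465% ± 0.00594. These sums and shares are descriptions and were not tested.

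**Figure D3:**
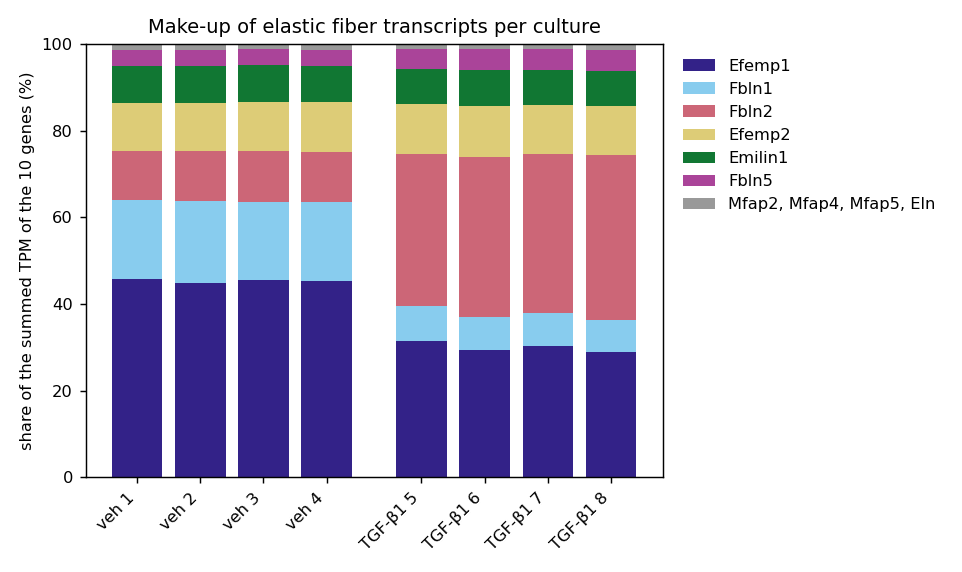
Share of each gene in the summed TPM of the 10 genes, in percent, as 1 stacked bar per culture, with the 4 least abundant genes joined in gray. The *Fbln2* band takes 11.5% on average with vehicle and 36.7% with TGF-β1, and the *Efemp1* and *Fbln1* bands narrow in every TGF-β1 culture.

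The balance within 4 pairs of related genes was then compared as the log2 ratio of their CPM in each culture, which does not depend on the scaling of a library. The ratio of *Fbln1* to *Fbln2* was 0.13 ± 0.0495 (SD, n = 4) with vehicle and -2.81 ± 0.103 (SD, n = 4) with TGF-β1, a difference of -2.93 (95% interval -3.07 to -2.79). On the linear scale there were 1.09 *Fbln1* counts for each *Fbln2* count with vehicle and 0.143 with TGF-β1. The ratio of *Mfap2* to *Mfap5* differed by -2.42 (95% interval -3.15 to -1.69), from 4.76 ± 0.562 to 2.34 ± 0.200 (SD, n = 4 each). That of *Efemp1* to *Efemp2* differed by -0.62 (95% interval -0.70 to -0.53), and that of *Fbln5* to *Efemp2* by 0.34 (95% interval 0.26 to 0.41). In each pair the groups did not overlap, and each gave p = 0.0286 in the exact two-sided permutation test. This is the smallest p that 4 cultures against 4 allow, and adjustment over the 4 pairs left it unchanged. For *Fbln1* to *Fbln2* it was fixed in advance, since the groups of these genes lay wholly apart in opposite directions. Each other pair holds a gene whose groups lay apart, and *Efemp2* is shared between pairs. The test thus adds no independent support to the changes of the single genes. The differences and their 95% intervals describe how far the responses of both long fibulins, both MAGPs and the compared short fibulins lay apart.

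**Figure D4:**
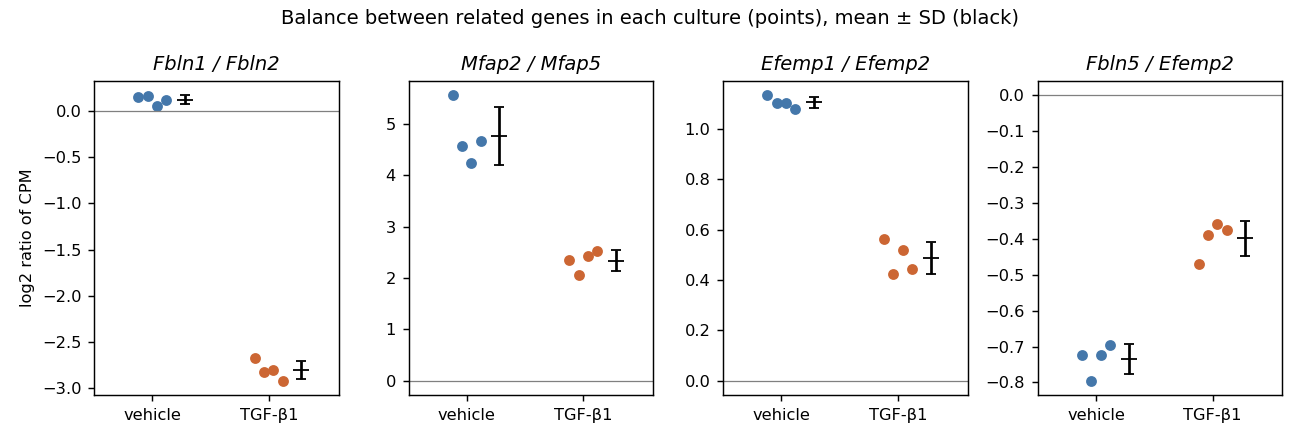
Log2 ratio of CPM for 4 pairs of related genes in each vehicle (blue) and TGF-β1 (orange) culture, with the mean ± SD in black and a gray line at equal counts. The *Fbln1* to *Fbln2* ratio crosses the line, from 0.13 to -2.81 on average, and in no pair do the groups overlap.

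Promoter sequence was looked up in RefSeq windows on GRCm38.p6 for all members, and 7 of the 10 genes matched, with 12 windows in all (*Eln*, *Mfap4* and *Mfap5* did not match). The 250 bases before a start were searched for the CAGA box bound by SMAD3 and SMAD4 (CAGACA) and a loose AP-1 pattern (TGANTCA, any base at N). Also sought were the GC box bound by SP1 (GGGCGG) and the E2 box bound by SNAIL and ZEB repressors (CACCTG). These searches used both strands and counted overlapping matches, and the TATA box (TATAAA) was sought on the strand of the gene. Shown are the windows of *Fbln1* and *Efemp1*, which fell, and of *Fbln5*, which rose, on the strand of the gene, 5′ to 3′, with matches in capitals, at chr15:85205699-85205948 (plus strand), chr11:28852955-28853203 (plus strand) and chr12:101819120-101819369 (minus strand).
Fbln1: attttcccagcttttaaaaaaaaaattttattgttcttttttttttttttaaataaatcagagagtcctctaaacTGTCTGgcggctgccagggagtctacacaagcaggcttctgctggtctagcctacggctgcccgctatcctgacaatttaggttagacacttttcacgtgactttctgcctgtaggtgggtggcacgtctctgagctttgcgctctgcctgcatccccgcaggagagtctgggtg
Efemp1: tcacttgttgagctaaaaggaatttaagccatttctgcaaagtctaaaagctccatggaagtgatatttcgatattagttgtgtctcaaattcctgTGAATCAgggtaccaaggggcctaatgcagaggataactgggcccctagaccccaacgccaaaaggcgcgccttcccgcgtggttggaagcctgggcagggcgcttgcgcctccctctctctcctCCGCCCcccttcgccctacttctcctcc
Fbln5: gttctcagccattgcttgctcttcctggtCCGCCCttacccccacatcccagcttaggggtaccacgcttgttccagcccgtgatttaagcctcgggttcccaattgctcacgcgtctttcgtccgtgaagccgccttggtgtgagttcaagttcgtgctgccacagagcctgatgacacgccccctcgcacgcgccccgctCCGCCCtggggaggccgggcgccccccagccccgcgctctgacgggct
The capitals mark 1 CAGA box before *Fbln1*, 1 match to the loose AP-1 pattern (TGAATCA) and 1 GC box before *Efemp1*, and 2 GC boxes before *Fbln5*. The CAGA and GC boxes lie on the opposite strand and are read as TGTCTG and CCGCCC. The GC content was 46.4% before *Fbln1*, 53.6% before *Efemp1* and 65.2% before *Fbln5*, against a median of 52.4% over 32851 windows of the genome. Some genes have more than 1 window, and each was searched, so shares are given per window and per gene with a match in any window. The 32851 windows belong to 27025 genes, and the 12 windows to 7 members. These members thus have more windows per gene, so the shares per gene are not a like comparison. Windows of a gene can overlap. Both windows of *Fbln1* hold the same CAGA box, and overlapping windows of *Efemp2* hold the same GC boxes. The counts of windows below therefore include these sites more than once, and the counts of genes do not. A CAGA box was in 5 of the 12 windows (17.1% of all windows), which belong to 4 of the 7 matched genes (19.3% of all genes), namely *Fbln1*, *Emilin1* and, in the second window only, *Fbln5* and *Mfap2*. A GC box was in 8 windows of 6 genes (32.7% of all windows, 35.4% of all genes), and a match to the AP-1 pattern in *Efemp1* alone (6.75% and 7.82%). None of the 12 windows held a TATA box (7.59% and 8.94%) or an E2 box (17.2% and 19.4%). Of the genes with a CAGA box, *Fbln1* and, less firmly, *Mfap2* fell, *Emilin1* did not pass the test and *Fbln5* rose. The *Fbln5* match lies in a window inside the annotated gene body (chr12:101818485-101818734), and so does the *Emilin1* match (chr5:30913536-30913785). *Fbln2* and *Efemp2*, which also rose, held no CAGA box in their windows. The *Fbln2* window (chr6:91212514-91212763) and some windows of *Efemp2* and *Mfap2* also lie inside their annotated genes. A match describes these letters and not a bound site.

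Other genes of elastic fiber assembly and turnover were followed in a list of 60 genes in 9 roles. Of the 54 that passed the filter, 33 rose and 17 fell, with a median log2 fold change of 0.33, where the median over all genes tested was -0.01. Thus 50 of the 54 were called, where 41.3% of all genes tested and 73.0% of the genes with at least 100 CPM were called. By direction, 20.9% of all genes tested rose and 20.3% fell, and the counts by role below stand against these shares.

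The scaffold and cross-linking genes moved mostly upward. Of the fibrillins and latent TGF-β binding proteins, 5 rose and 1 fell. *Fbn1*, the main microfibril protein, went from 171 ± 6.82 to 602 ± 19.8 CPM (SD, n = 4 each; log2 fold change 1.81), whereas *Fbn2*, the fibrillin of developing tissue, fell by 0.20 on the log2 scale (adjusted p = 0.00788, edgeR). *Ltbp2*, which competes for fibrillin-1, rose most in this role (log2 fold change 1.89). All of the lysyl oxidases but *Loxl4* rose, as did the copper transporter *Atp7a*, which loads these copper enzymes. *Lox* went from 959.7 ± 39.5 to 2206 ± 32.5 CPM (SD, n = 4 each; log2 fold change 1.20), and *Loxl1*, which fibulin-5 binds, rose by 0.45. The difference of *Loxl4* was 0.04 on the log2 scale (adjusted p = 0.629, edgeR).

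The remaining roles were split. Of 7 ADAMTS and ADAMTSL genes, 4 rose and 2 fell, from a log2 fold change of 0.93 for the protease *Adamts6* to -0.69 for *Adamtsl6*, which promotes fibrillin assembly. Of the other fibulins, hemicentins and EMILINs, 2 rose and 2 fell among 5 tested. Hemicentin-2 (*Hmcn2*) rose by 0.94 and fibulin-7 (*Fbln7*) fell by 0.80 on the log2 scale, the latter from only 1.69 CPM with vehicle. Among proteases that can cut elastin, 5 rose and 2 fell. *Mmp9* had the largest rise, of 1.32, but from only 0.405 CPM with vehicle, and the membrane protease *Mmp14* fell by 0.23 from 824 CPM. Of the protease inhibitors tested, 2 rose and 3 fell. *Timp1* rose by 1.13, and *Timp4* had the largest fall, of 0.73, from only 1.89 CPM with vehicle and with groups that overlapped.

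Genes for receptors and associated proteins were also divided. The elastin receptor complex, in which elastin peptides bind a splice form of β-galactosidase (*Glb1*) held with cathepsin A (*Ctsa*) and neuraminidase 1 (*Neu1*), changed by little, *Neu1* rising by 0.10 and *Ctsa* falling by 0.11 on the log2 scale. Of 8 integrin subunits that recognize the RGD motif, 5 rose and 2 fell, led by *Itgb3* (log2 fold change 1.89) in one direction and *Itga8* (-0.78) in the other. Among proteoglycans and other associated genes, biglycan (*Bgn*) rose by 1.06, whereas *Tnxb*, which encodes the matrix glycoprotein tenascin-X, fell from 129 ± 8.66 to 33.2 ± 3.93 CPM (SD, n = 4 each; log2 fold change -1.96, adjusted p = 2.42e-06, edgeR).

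**Figure D5:**
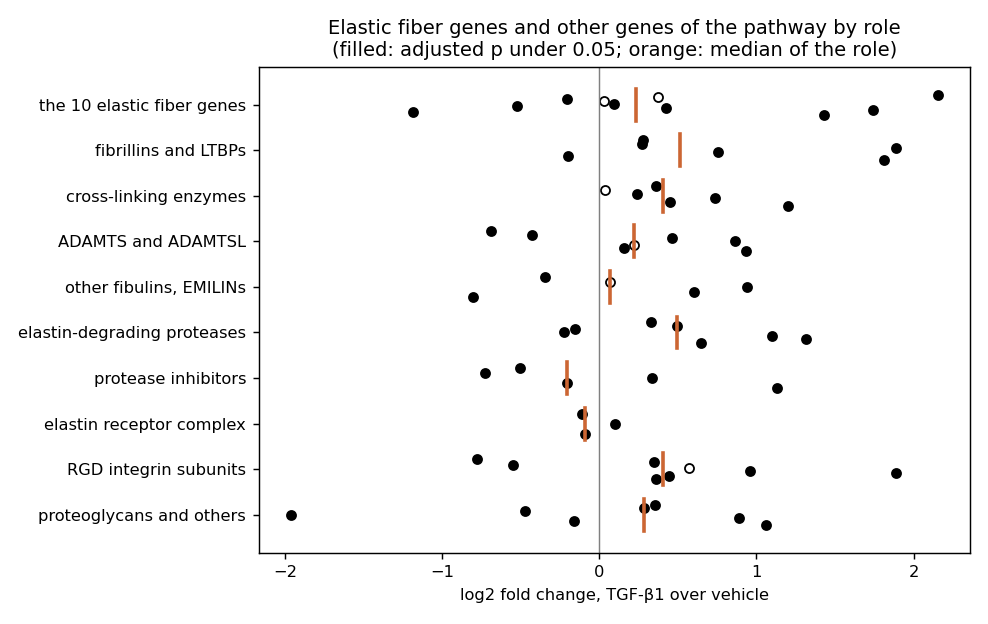
Log2 fold change of TGF-β1 over vehicle (horizontal axis) for the 10 elastic fiber genes and for the 54 tested genes of the 9 other roles, filled where the adjusted p was under 0.05, with the median of each role in orange. The cross-linking enzymes all lie to the right of 0, their median at 0.41, while the other 9 rows hold genes on both sides.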

How the data were processed

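Per the study's methods and the submitters' processing notes, the authors used STAR 2.7.5c for alignment to mm10 in 2-pass mode, SAMtools 1.15 to drop PCR duplicates, and featureCounts 2.0.3 for counting. They deposited raw counts per gene, 1 library per culture, with no normalization. The annotation, the strand setting and whether pairs were counted once are not given in the sources used here. Low counts (1 to 20) were even in 68.5% to 70.2% of cases per culture, so the number of independent fragments may be lower than the counts.

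Identifiers were joined to GENCODE M21 (GRCm38), which gave a symbol for 54495 of 54532. The comparison used edgeR 4.0.16 (R 4.3.3) with filterByExpr, TMM, robust dispersion and the quasi-likelihood test over 22544 genes, Benjamini-Hochberg adjustment and a threshold of 0.05. The standard error is the log2 fold change divided by the square root of F. A count of 3 equals 0.0631 to 0.0658 CPM. DESeq2 1.42.0, other scalings and filters, halved counts and the omission of each culture were alternatives. The code was tested on simulated data. Stretches of 50 bases shared with transcripts of another gene made up at most 0.554% of a member.

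The members, gene lists and tests were chosen with earlier results of these data known, and the promoter motifs after the members' changes were seen. The rule for named genes covered the 10 members and, in each role, the called gene with the largest rise and the one with the largest fall, with *Fbn1*, *Fbn2*, *Lox* and *Loxl1* added, and *Smad7* and *Cthrc1* as a check of the labels. Another gene of that check is not reported here. The qPCR, protein and single-cell experiments were not analysed here.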

Additional observations from a re-analysis of the deposited data

Results flagged for a closer look

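In 30 groups of 4 values (the CPM of the 10 elastic fiber genes, the 4 log2 ratios and the library totals, in each group of cultures), no culture stood far from the other 3 by Dixon's criterion at the 95% level, where chance at 1 in 20 gives 1.5 such groups.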

How the results depend on the processing

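No paired analysis was possible because the labels give the vehicle and the TGF-β1 cultures different numbers. No batch or date is given in the labels. *Mfap5* could not be tested with a filter of at least 10 counts in every culture, since 1 vehicle culture had 9. Outside *Mfap2*, the members kept their direction and their side of the threshold under every alternative run (DESeq2, DESeq2 size factors or library totals in edgeR, both filters, halved counts and each culture left out). *Mfap2* kept its direction but lost the call with DESeq2 (log2 fold change -0.20, adjusted p = 0.111), and with a culture left out its log2 fold change ranged from -0.27 to -0.16. The number of members called was 4 or 5 for rises and 2 or 3 for falls. The differences in log2 ratio with a culture left out kept their sign. Per-length levels depended on the length used. With the longest transcript in place of all exons, the vehicle means were 0.697 TPM for *Eln*, 399.6 for *Fbln1*, 81.1 for *Fbln5*, 829 for *Efemp1*, 298 for *Efemp2*, 197 for *Emilin1* and 25.9 for *Mfap2*. The TGF-β1 means were 1.87 TPM for *Eln*, 174 for *Fbln1*, 932 for *Fbln2*, 108 for *Fbln5*, 573 for *Efemp1*, 316 for *Efemp2*, 22.3 for *Mfap2* and 1.90 for *Mfap5*. Depth limits *Eln*, *Mfap4* and *Mfap5*, which have at most 114 counts in any culture.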

Other observations

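Other genes that carry the Mfap name but act elsewhere gave a mixed picture. *Mfap1a* and *Mfap1b*, which encode a nuclear splicing factor, are near-identical copies, so how their reads were divided is uncertain. *Mfap1a* was lower (log2 fold change -0.23, standard error 0.05, adjusted p = 6.13e-05, edgeR quasi-likelihood test) and *Mfap1b* did not pass the test (-0.08, adjusted p = 0.265). *Mfap3* did not pass it either (0.06, adjusted p = 0.157). *Mfap3l*, which encodes a membrane protein, rose from 3.55 ± 0.223 to 8.44 ± 0.234 CPM (SD, n = 4 each; log2 fold change 1.25, adjusted p = 1.03e-15), with every TGF-β1 culture above every vehicle culture.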
